A study of Mus musculus with 7 samples.

Results

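The ribosomal protein genes are the protein components of the cytoplasmic ribosome. They were taken here as every gene whose symbol is Rpl or Rps followed by a number, with an optional letter or digit after it, or is Rplp0, Rplp1, Rplp2 or Rpsa. Pseudogenes with ps in their names were left out by this rule, but 5 genes that it took in, Rps4l, Rpl6l, Rps3a2, Rps3a3 and Rps12l1, are annotated as processed pseudogenes, the first of them as transcribed. It gave 88 genes of the 48440 in the table, 52 named for the large subunit and 36 for the small subunit, and they were compared in bulk RNA-seq of embryonic day 16 mouse retina after deletion of Ptbp1, an RNA-binding protein that represses many exons. The libraries were 1 Chx10Cre library without a floxed Ptbp1 allele (WT), 3 Chx10-Cre;Ptbp1lox/WT libraries (Het) and 3 Chx10-Cre;Ptbp1lox/lox libraries (KO), so Cre was present in all 7. Chx10-Cre acts in retinal progenitors and their descendants, and the loxP sites flank the promoter and first exon of Ptbp1, so blood vessels, microglia and other cells outside that lineage keep the gene. Each library came from pooled retinas, 6 for WT, 5, 5 and 6 for Het1 to Het3, and 4, 4 and 6 for KO1 to KO3.

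A ribosome holds 1 copy of most of these proteins, arranged on ribosomal RNA, and the stalk proteins P1 and P2 are the exception, being present as dimers on P0. Cells make the set in step, and their mRNAs carry a run of pyrimidines at the very start, the 5′ terminal oligopyrimidine (TOP) tract, through which mTOR signalling sets their translation. Retinal progenitors divide quickly and hold ribosomal protein mRNAs at high levels. Some genes have paralogs, such as Rpl22l1 beside Rpl22, and nearly every one has many processed pseudogenes, intronless copies of the mRNA scattered over the genome.

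Total counts per library were between 120593979 and 171117305. Values below are counts-per-million values (CPM) scaled by edgeR's TMM factors, differences are KO over Het, and a gene was called when edgeR's quasi-likelihood test gave a Benjamini-Hochberg adjusted p below 0.05 over 20019 tested genes and an absolute log2 fold change above 0.26, a change of about 20%. Ptbp1 itself was at 381 CPM in WT, at 210, 219 and 234 CPM in Het and at 27.9, 6.04 and 46.9 CPM in KO (log2 fold change -3.04, edgeR adjusted p = 0.0316). Every KO library lay below every Het library, and WT was highest. Without Het1, Het2, Het3 or KO1 in turn its edgeR adjusted p rose above the limit, to 0.0519 to 0.0964. The 8 retinal markers, Pax6 among them, summed to 2588 to 2724 CPM in Het and 2588 to 2616 CPM in KO, and none of the 8 was called by edgeR or DESeq2 (3 had an unadjusted p below 0.05, all lower). Het1 stood apart, with 12 skeletal muscle genes summing to 319 CPM against 8.57 to 11.7 CPM in the other libraries and 8 pigment epithelium genes at 536 CPM against 19.9 to 62.6 CPM. Erythroid genes summed to 189 to 531 CPM in Het and to 37.1, 24.5 and 298 CPM in KO, lens genes to 25.7 to 82.0 CPM in Het and 3.24 to 72.9 CPM in KO, and microglial genes to 49.5 to 70.0 CPM in Het and 71.6 to 96.5 CPM in KO. All 8 microglial genes were higher at an unadjusted p below 0.05, and Cx3cr1 was called (log2 fold change 0.71, edgeR adjusted p = 0.0429). The 8 endothelial genes summed to 379 to 399 CPM in Het and 475 to 570 CPM in KO, most of it from Kdr, which was called higher (log2 fold change 0.44, edgeR adjusted p = 0.0186), while 6 of the 8 had negative values. Their median log2 fold change was -1.59, so the sum follows Kdr and not most of the list. By edgeR 0 of the 8 were called lower (1 at an unadjusted p below 0.05). No microglial gene was called without Het1, Het2, KO2 or KO3, and no endothelial gene was called higher without Het2 or Het3. The part of these lists in the differences below was not tested. In bulk RNA, fewer cells of a type and less RNA per cell cannot be told apart.

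The ribosomal protein genes were slightly lower in KO almost throughout, and Rpl29 was far lower than any other. Of the 86 members tested, 11 were called lower (12.8%) and none higher. Over all genes, 7.22% were called, 3.21% lower and 4.01% higher. With no member called higher by edgeR, 2 members had an unadjusted p below 0.05 in that direction, and DESeq2 called 0. The remaining pair, Rpl10l and Rps12l1, had 0 counts in every library and could not be tested. The log2 fold change was negative for 82 members and positive for 4 (Rpl24, Rps27l, Rpl10a and Rpl3l), against 51% of all genes with a negative value. The median member lay at -0.19, a level 12.4% lower in KO, with quartiles at -0.24 and -0.15, while the median of all genes was -0.0047. Leaving out the 11 called genes gave a median of -0.18.

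Among the 11 called genes were Rpl29, Rpl35a, Rpl22, Rpl3 and Rpl7l1, of 51 tested genes named for the large subunit, and Rps2, Rps18, Rps14, Rps20 and Rps28, of 35 named for the small subunit. Of the 11, Rpl29, Rpl35a and Rps2 were more than 2-fold lower, and the other called genes lay between -0.56 and -0.27. The 68 uncalled members with negative values and over 10 CPM in Het had a median of -0.18, from -0.37 for Rpl34, whose groups overlapped, to -0.06 for Rplp1. The median log2 fold change was -0.18 for the large subunit genes and -0.21 for the small subunit genes. Every KO library lay below every Het library for 59 members and above every Het library for Rpl10a and Rpl3l, while 25 members overlapped. Such separation was found lower in KO for 17.7% of all genes and higher in KO for 18.6%. Dropping the fold limit gave 31 members with an adjusted p below 0.05, all lower, against 5.31% of all genes.

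**Figure D1:**
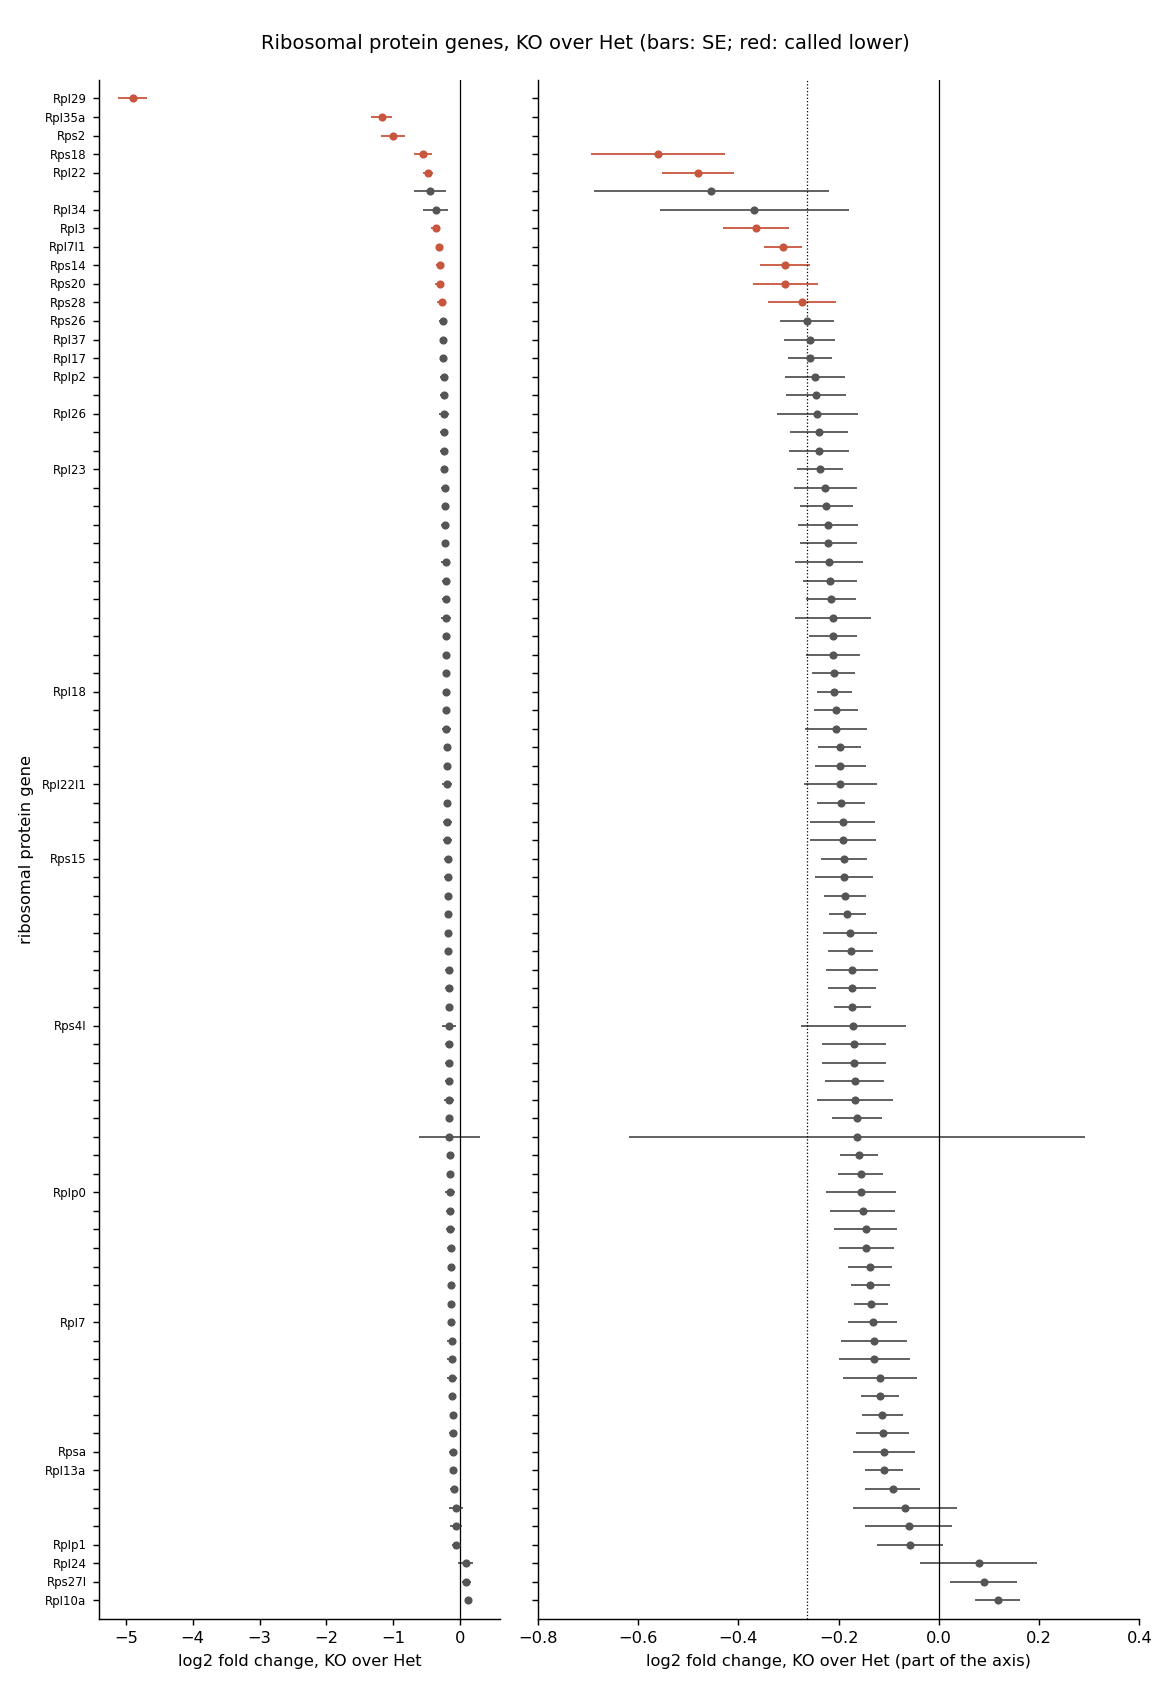
Log2 fold change of KO over Het for 82 members above 1 CPM in Het, with the standard error of the edgeR fit as bars, over the whole range on the left and from -0.8 to 0.4 on the right. Rpl29 at -4.90 stands far to the left of Rpl35a at -1.18 and Rps2 at -1.01, and most other genes lie a little to the left of 0. Called genes are red, most but not all genes named in the text carry labels, and the dotted line marks the fold limit.

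The size of the common shift differed between the KO libraries. Relative to the Het mean, the median member was at -0.10 in KO1, -0.21 in KO2 and -0.28 in KO3 on the log2 scale. In the Het libraries it was at -0.01, -0.0027 and 0.0087, and in WT at -0.05. Each KO median thus lay below the WT and Het medians, and KO1 was nearest to them. The WT value was below every Het value for 54 members, within the Het range for 28 and above it for 4, and for 74 of 86 its distance to the Het mean was the smaller one. With 1 WT library, its difference from Het could not be tested. The standard deviation over libraries was also wider in KO: among the 81 members above 10 CPM, the median coefficient of variation was 2.19% over the 3 Het libraries and 6.82% over the 3 KO libraries.

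The 88 genes together took 3.81% of all counts in WT, 3.89%, 3.89% and 3.94% in Het, and 3.62%, 3.39% and 3.31% in KO. The share was lower in 3 of 3 KO libraries, with a KO minus Het difference of -0.467 percentage points (Het 3.91% ± 0.0246, KO 3.44% ± 0.161, SD, n = 3 each). No p-value is given for this share, because the members were chosen with earlier results of these data known. Without Rpl29 the difference was -0.449 percentage points, so nearly all of it came from the other genes.

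**Figure D2:**
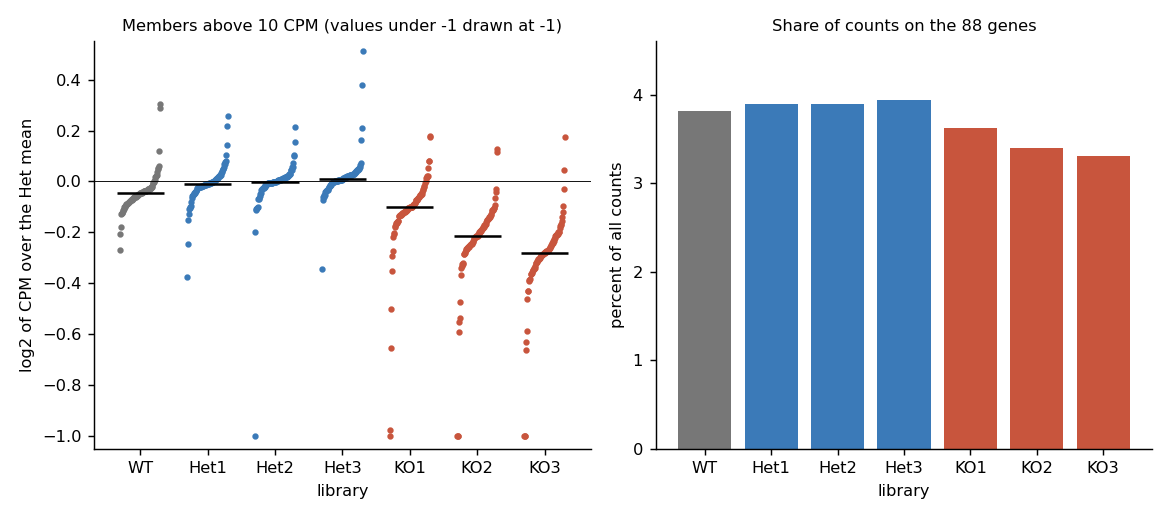
Left, log2 of CPM over the Het mean for each of the 81 members above 10 CPM, sorted within each library, with the median as a black line. Right, percent of all counts on the 88 genes. KO medians lie at -0.10, -0.21 and -0.28, below WT and Het, and 8 values under -1 are drawn at -1.

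Rpl29 (9:106429454-106431568, plus strand, GRCm38) encodes a small basic protein of the large subunit that is also described at the cell surface as a heparin-binding protein. It was at 231 CPM in WT, at 146, 175 and 246 CPM in Het1 to Het3 and at 6.81, 6.30 and 5.92 CPM in KO1 to KO3. The groups were widely separated, and WT lay within the Het range. On average KO held 3.36% of the Het level, which is 29.8-fold lower (log2 fold change -4.90, SE 0.217, edgeR adjusted p = 0.000493). In raw counts this was 903, 829 and 788 in KO against 24737 in Het1 and 20867 in Het2, so the KO level was low but far from 0. The next member, Rpl35a, differed from Het by 2.26-fold. No other member came near the difference of Rpl29, so in these libraries its size was alone among the ribosomal protein genes, while its direction was that of 82 members, Rpl29 included.

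Rpl35a (16:33056453-33060189, plus strand), a large subunit protein known for its mutation in Diamond-Blackfan anemia, was at 222 CPM in WT. Its Het libraries were at 172, 237 and 204 CPM and its KO libraries at 104, 74.5 and 92.8 CPM. The highest KO value lay well below the lowest Het value (log2 fold change -1.18, SE 0.152, edgeR adjusted p = 0.00897).

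Rpl22, which sits on the outside of the large subunit and also binds mRNAs, was at 269 CPM in WT, 272, 295 and 284 CPM in Het and 222, 204 and 183 CPM in KO (log2 fold change -0.48, edgeR adjusted p = 0.0132). Rpl3, a core protein near the peptidyl transferase center, was at 717 CPM in WT, 797, 701 and 761 CPM in Het and 623, 584 and 547 CPM in KO (log2 fold change -0.36, edgeR adjusted p = 0.0214). Neither gene's groups overlapped, and for both the WT library lay with Het or just under it.

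Among the small subunit genes, Rps2 (17:24718116-24721929, plus strand), a protein at the mRNA entry channel, had the largest difference when counted without its near copies, which are described below. It was at 620 CPM in WT, 666, 738 and 740 CPM in Het and 455, 348 and 265 CPM in KO (log2 fold change -1.01, SE 0.182, edgeR adjusted p = 0.0213). The KO libraries themselves spread widely, with KO1 highest. Rps18, which lies in the head of the subunit, was at 268 CPM in WT, 353, 319 and 239 CPM in Het and 214, 202 and 202 CPM in KO (log2 fold change -0.56, edgeR adjusted p = 0.0449). Here the Het libraries spread widely, and Het3 lay close to the KO values.

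Other called genes of the small subunit differed by less. Rps14, whose loss is tied to the anemia of the 5q- syndrome in people, was at 489 ± 13.2 CPM in Het and 395 ± 23.2 CPM in KO (SD, n = 3 each; edgeR adjusted p = 0.0163). Rps20, of the subunit's head, was at 487 ± 11.3 and 394 ± 35.1 CPM (edgeR adjusted p = 0.0328). Rps28 was at 253 ± 13.2 and 209 ± 17.1 CPM, with an edgeR adjusted p of 0.0490 and a log2 fold change of -0.27, just inside both limits. Rps26, with a log2 fold change of -0.26 and an adjusted p of 0.0296 by edgeR, lay just short of the fold limit, and so did Rpl37 and Rpl17, both also at -0.26. The uncalled members with the smallest adjusted p were Rpl18, Rpl17 and Rpl23, with log2 fold changes of -0.21, -0.26 and -0.24.

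**Figure D3:**
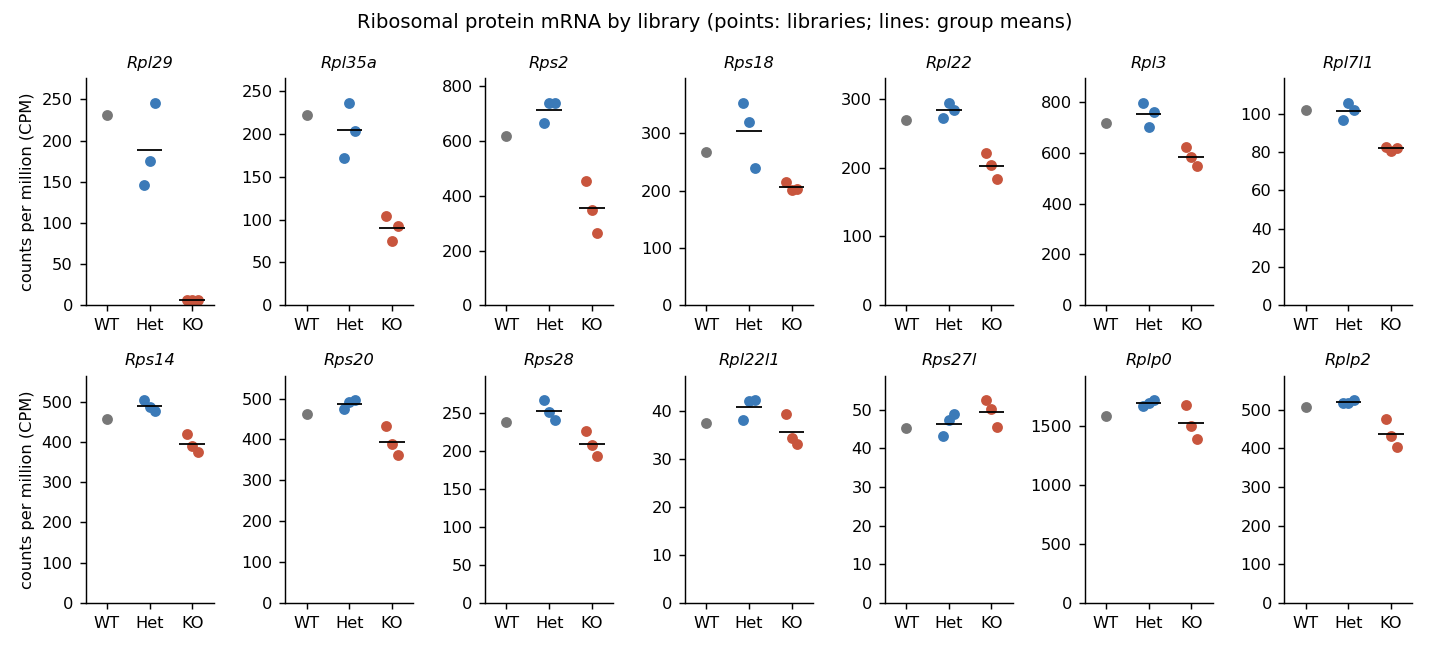
CPM by library for 10 of the called members and for Rpl22l1, Rps27l, Rplp0 and Rplp2, from 0 on each axis, with points for libraries and lines for the Het and KO means. KO points lie below all Het points for the 10 called genes and Rplp2, and they overlap the Het points for Rpl22l1, Rps27l and Rplp0.

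How far these calls held differed between genes. Rpl29 and Rpl35a stayed called under all 18 alternatives, which include leaving out each Het or KO library, and Rpl7l1 under 17. Rpl22, Rpl3, Rps14 and Rps2 lost the call without Het2, without Het3 and without KO2, with edgeR adjusted p from 0.0547 to 0.0852. Rps18 lost it without Het1, Het2, KO1, KO2 or KO3, with edgeR adjusted p from 0.0757 to 0.139. Rps20 and Rps28 lost it without any one of the Het libraries, KO2 or KO3, with edgeR adjusted p up to 0.120 and 0.151. Rps28 also lost it when libraries were scaled by RLE or upper-quartile factors in place of TMM. Without KO3 the log2 fold change of Rps20 moved inside the fold limit, to -0.25. The number of members called lower was 7 without Het1, 3 without Het2, 4 without Het3, 32 without KO1, 3 without KO2 and 7 without KO3. Over all genes the share called lower in those fits was 2.74%, 1.09%, 1.26%, 2.77%, 1.65% and 4.42%. The median log2 fold change of the members moved less, from -0.24 without KO1 to -0.15 without KO3, and it was -0.20 without Het1.

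The stalk genes were not called. Rplp0, which anchors the stalk that recruits elongation factors, was at 1590 CPM in WT, 1675, 1695 and 1718 CPM in Het and 1676, 1506 and 1388 CPM in KO (log2 fold change -0.16, edgeR adjusted p = 0.196). Rplp1 was at 551 ± 6.66 CPM in Het and 529 ± 48.1 CPM in KO, with a log2 fold change of -0.06, and Rplp2 at 519 ± 3.70 and 438 ± 36.4 CPM, with -0.25 and an edgeR adjusted p of 0.0474. Only Rplp2 of the 3 was separated between the groups, and its difference was inside the fold limit. Rpsa, which is also known as the laminin receptor, was at 1326 ± 23.7 CPM in Het and 1229 ± 96.4 CPM in KO (log2 fold change -0.11, edgeR adjusted p = 0.278).

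Per kilobase of annotated exon, Rplp1 had the highest level in Het at 1104 ± 13.4 CPM per kb, then Rplp0 at 1022 ± 13.3 and Rps15 at 946 ± 17.2 (SD, n = 3), and each step exceeded these standard deviations. Rpl29 was at 168 ± 45.8 CPM per kb in Het and 5.63 CPM per kb in KO. The lowest tested levels were those of Rpl3l, Rpl39l and Rps3a3, at 0.013, 0.081 and 0.629 CPM per kb. Rpl10a, of the L1 stalk of the large subunit, was the only well expressed member that was higher in every KO library than in every Het library, at 352, 340 and 360 CPM in Het and 397, 383 and 361 CPM in KO, and it was not called (log2 fold change 0.12, edgeR adjusted p = 0.140).

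Of 6 tested paralogs, 4 had negative values and 1 was called lower. Rpl22l1, the paralog of Rpl22, was at 37.5 CPM in WT, 38.2, 42.2 and 42.3 CPM in Het and 39.4, 34.5 and 33.2 CPM in KO. The groups overlapped at KO1, and the difference of -0.20 (SE 0.073, edgeR adjusted p = 0.132) was close to the median of all members. It was called lower only without KO1. Because Rpl22 was lower by more, the ratio of Rpl22l1 to Rpl22 per length was 20.4% in WT, 20.5%, 20.9% and 21.8% in Het, and 25.9%, 24.7% and 26.5% in KO. The ratio was higher in 3 of 3 KO libraries than in any Het or WT library, by 0.29 on the log2 scale (exact two-sided permutation p = 0.1, the smallest possible).

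Rpl7l1, a relative of Rpl7 that acts in the maturation of the large subunit, was the called paralog. It was at 102 CPM in WT, 96.9, 106 and 102 CPM in Het and 82.9, 80.7 and 81.9 CPM in KO (log2 fold change -0.31, SE 0.037, edgeR adjusted p = 0.0078). Its parent Rpl7 was at -0.13 and was not called. Rps27l, a paralog of Rps27 and a known p53 target, was at 45.2 CPM in WT, 43.1, 47.3 and 48.8 CPM in Het and 52.4, 50.3 and 45.4 CPM in KO, with a log2 fold change of 0.09. Rps4l, one of the annotated pseudogenes, was at 29.5 ± 2.67 CPM in Het and 26.2 ± 3.22 CPM in KO, a log2 fold change of -0.17. Rpl3l, the paralog of striated muscle, had 1 to 7 counts per library in WT and Het1, Het2 and Het3 and 10 to 13 in KO, and Rpl39l, the paralog of the testis, had at most 26 counts, in Het1, so no difference is read from either.

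Reads of these genes are hard to place, because near copies of their coding sequences are common. Near copies were annotated genes that matched at least 90% of the bases over at least 80% of a member's coding sequence: 804 in the table, of which 273 were tested, and 79 of the 88 members had at least 1. Of those tested, 3 were called lower (1.1%) and 4 higher (1.47%), and all 7 were copies of Rpl29 or Rps2. Both shares lay under those over all genes, 3.21% and 4.01%. With 1 library left out, 2 to 8 were called lower, with 8 without KO1 and 2 without Het2, Het3 or KO2, and 1 to 4 higher, with 1 without Het2 and 2 without Het3, KO1 or KO2. The lower share was 0.73% to 2.91% of the copies, against 1.09% to 4.42% of all genes. The higher share was 0.369% to 1.49%, against 0.834% to 3.97%. Few bases tell Rpl29 from its copies Gm8210 and Gm10709, or Rps2 from Rps2-ps13. The windows of 60 coding bases in which they differ most are shown for these, and the other called copies were not compared in this way. Capitals mark the positions that differ, and positions count from the A of the start codon, 398 to 457 for Rpl29 and 25 to 84 for Rps2.
Rpl29: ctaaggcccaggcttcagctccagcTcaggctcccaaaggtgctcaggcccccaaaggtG
Gm8210: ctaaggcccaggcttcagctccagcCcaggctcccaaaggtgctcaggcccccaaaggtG
Gm10709: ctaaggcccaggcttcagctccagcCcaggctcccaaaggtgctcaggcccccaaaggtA
Rps2: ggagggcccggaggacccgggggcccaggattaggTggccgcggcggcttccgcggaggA
Rps2-ps13: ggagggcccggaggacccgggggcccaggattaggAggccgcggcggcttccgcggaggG

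Gm8210 (1:43189156-43189638) matched 99.4% of the Rpl29 coding sequence and moved the other way. It was at 4.19 CPM in WT, 14.8, 12.3 and 6.24 CPM in Het and 29.0, 24.4 and 23.1 CPM in KO (log2 fold change 1.20, edgeR adjusted p = 0.0490), and lost the call without Het2, without any one of the KO libraries and under 2 other alternatives. In the 3 Het libraries it was highest where Rpl29 was lowest. Gm10709 (9:7751725-7752204), with 4 mismatches, was at 2.30, 2.03 and 3.18 CPM in Het and 0.060, 0.076 and 0.090 CPM in KO (log2 fold change -5.04, edgeR adjusted p = 0.000882). Gm17669 had at most 2 counts in any KO library, at least 52.1-fold lower than in Het when KO is set at 3 counts per library, and Gm5561, which was also called lower, was at only 0.119 CPM in Het. Summed with all 49 near copies, Rpl29 was at 243 CPM in WT, 168, 195 and 261 CPM in Het and 40.4, 35.1 and 33.0 CPM in KO, a log2 fold change of -2.53 (edgeR adjusted p = 0.0021). The family sum was thus 5.75-fold lower, and Gm8210 held most of what was left in KO.

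Rps2-ps13 (X:52898588-52899469), a processed pseudogene with 7 mismatches over 879 bases of the Rps2 coding sequence, was at 118 CPM in WT, 83.0, 46.2 and 71.2 CPM in Het and 181, 241 and 281 CPM in KO. It was higher in every KO library (log2 fold change 1.81, SE 0.246, edgeR adjusted p = 0.0104), in the order KO3, KO2, KO1, which is the reverse of the order of Rps2. Summed with its 42 near copies, Rps2 was at 744 CPM in WT, 757, 791 and 820 CPM in Het and 647, 605 and 554 CPM in KO, a log2 fold change of -0.39 (edgeR adjusted p = 0.0164) in place of -1.01. The sum was thus 1.31-fold lower, a smaller difference than that of Rps18 with its copies, at -0.56. Gm5921, another Rps2 copy, was at 1.31, 1.28 and 1.19 CPM in Het and 2.83, 2.35 and 2.22 CPM in KO (log2 fold change 0.97, edgeR adjusted p = 0.0115, lost without Het2 or Het3, at 0.0593 and 0.0529), and Gm8520, also called higher, was at 0.227 CPM in KO. How the counting step assigned reads that match both a gene and its copy is not given in the sources used here, so the split between parent and copy is uncertain and its part in these values was not tested.

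Summing other genes with their copies moved them less. Rpl35a with its 19 copies was at -1.15 (edgeR adjusted p = 0.00898), Rpl22 with 4 at -0.48 and Rps18 with 12 at -0.56. Rpl3-ps1, the most abundant copy of Rpl3, was at 59.9 ± 10.9 CPM in Het and 68.4 ± 4.52 CPM in KO and was not called (log2 fold change 0.19), and the Rpl3 family was at -0.32 in place of -0.36. With families summed, 12 members were called lower, the added one being Rps26 at -0.26, now past the fold limit. Of 93 tested pseudogenes with ps in their names, Rps2-ps13 was the only one called by edgeR, and their median was -0.22. With no member of this list called lower, 5 had an unadjusted p below 0.05 in that direction and DESeq2 called 1 lower and 3 higher.

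**Figure D4:**
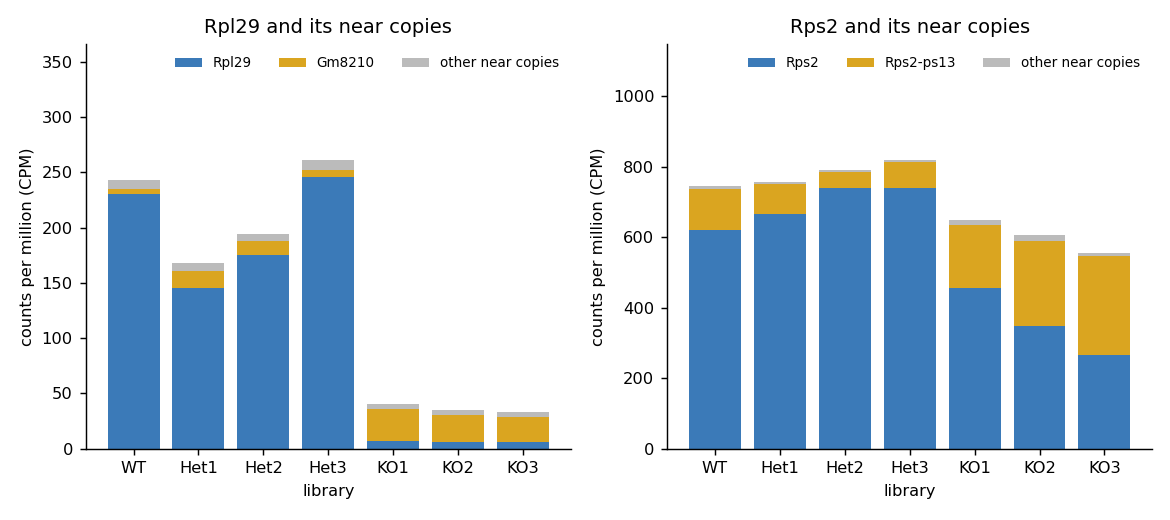
CPM by library of Rpl29 (left) and Rps2 (right), stacked with their most abundant near copy and the sum of the other near copies, from 0. The Rpl29 family falls from 168 to 261 CPM in Het to 33.0 to 40.4 CPM in KO, and Rps2-ps13 is taller in KO as Rps2 is shorter.

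Genes beside Rpl29 were lower as well. Of the 10 tested genes nearest to it, 5 on each side (9:106233455-106465938), 6 were called lower and none higher (9 and 0 at an unadjusted p below 0.05, and 7 and 0 by DESeq2), against 4.97% called lower and 2.26% higher among the tested genes of chromosome 9. The count was 7 without Het1, 5 without KO1 and 6 without KO3, and it was 1 without Het2, without Het3 or without KO2, where between 1.81% and 2.55% of the genes of chromosome 9 were called lower. Abhd14a, 18.2 kb away, was at 19.2, 20.8 and 25.7 CPM in Het and 9.14, 8.60 and 8.69 CPM in KO (log2 fold change -1.31, edgeR adjusted p = 0.00323), and stayed called under all 18 alternatives. The others were 4930500F10Rik (-2.36, under 1 CPM in every library), Abhd14b (-0.70), Dusp7 (-0.56), Poc1a (-0.56) and Acy1 (-0.45). Pcbp4, which encodes a poly(C)-binding protein and was the most abundant of the 10, was at -0.08 and not called.

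Around Rps2 (17:24685092-24758684), 5 of 10 were called lower and none higher (7 and 2 at an unadjusted p below 0.05, and 4 and 0 by DESeq2), against 9.94% and 3.98% of the tested genes of chromosome 17. The count was 1 without Het2, 3 without Het3 and 4 or 5 without any one other library. The 5 were Msrb1 (-0.50), Tbl3 (-0.34), Gfer (-0.29), Ndufb10 (-0.29) and Snhg9. Snhg9 is antisense to Rps2 and had 0 counts in the KO libraries, at least 5.27-fold lower than in Het with KO at 3 counts per library. Snhg9 (17:24719531-24719965) lies within the annotated span of Rps2 but before the RefSeq start of Rps2 at 17:24720063. Whether strand was used in counting is not given in the sources used here. Any part of Rps2 reads in the counts of Snhg9 was not tested. Around Rpl35a, none of 10 was called in either direction by edgeR or DESeq2 (3 lower and 2 higher at an unadjusted p below 0.05), where 5.18% of the tested genes of chromosome 16 were called lower and 1.73% higher, with values from -2.58 for Muc20, at 0 to 0.26 CPM, to 0.15 for Zfp148.

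**Figure D5:**
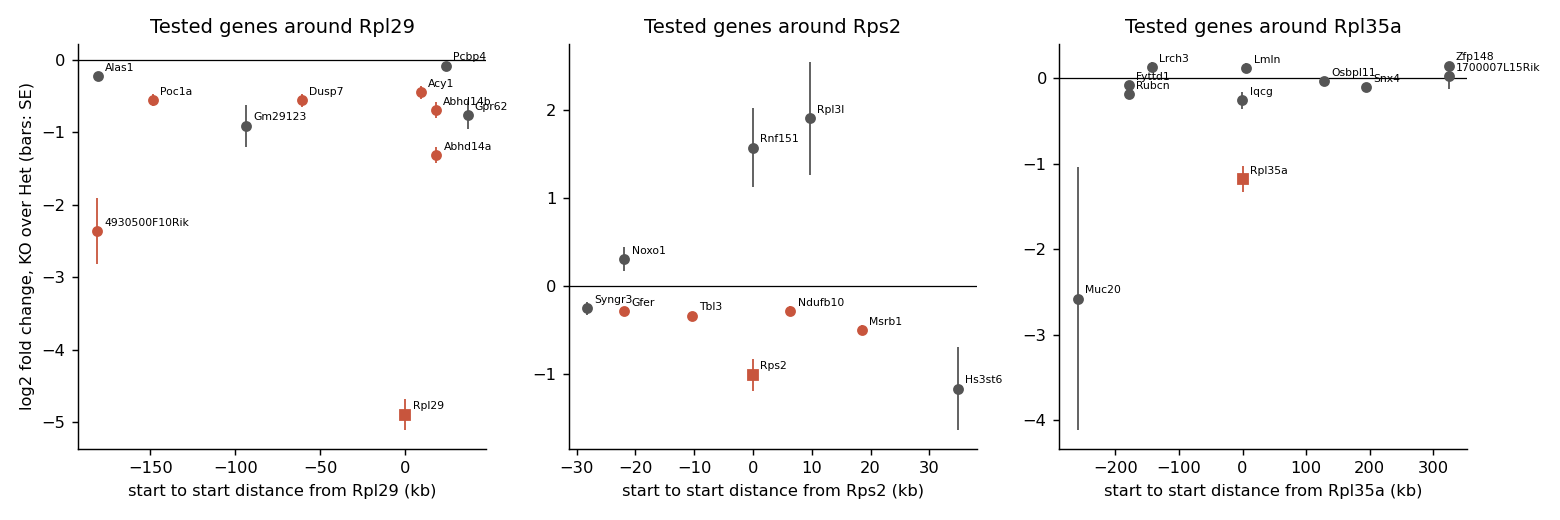
Log2 fold change of KO over Het for the 5 tested genes on each side of Rpl29, Rps2 and Rpl35a against distance in kb. Distances run between the gene starts of GENCODE M21, which for Rps2 is 17:24718116 and not the RefSeq start 17:24720063. Bars are standard errors, squares mark the ribosomal protein gene, and red marks genes called lower. Red points surround Rpl29 and Rps2 and are absent around Rpl35a, and Snhg9, at 0 counts in KO, is not drawn.

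Of the members on chromosome 17, 4 of 8 were called lower (Rps2, Rps18, Rps28 and Rpl7l1), against 7 of 78 elsewhere. Among all tested genes of chromosome 17, 9.94% were called lower and 3.98% higher, against 3.21% and 4.01% over the whole table. The count of 4 members was 2 without Het1, Het3 or KO3 and 1 without Het2 or KO2, while 8.27%, 6.33%, 10.5%, 4.65% and 6.32% of the genes of chromosome 17 were called lower in those fits. The members of chromosome 17 that were not called include Rpl10a, on the other side of 0. The median log2 fold change was -0.24 for the 8 and -0.19 for the 78.

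The TOP tract is the feature that these mRNAs are known to share. In the RefSeq promoter table (GRCm38.p6), 63 of the 88 genes had at least 1 annotated start, and the table gave 75 starts for them. A start was counted when the first base was C and the next 4 were C or T on the gene's strand. This held for 17.3% of the 75 starts against 2.51% of 32851 starts of all genes, and for 13 of the 63 genes (20.6%, against 3.01% of all genes with an entry). Among the 6 called members with an entry it held for Rps18 and for 1 of the 3 starts of Rpl35a. Rpl29 had no entry. A tract that begins some bases from the annotated start was not counted, so these shares do not give how many of the mRNAs carry one. Windows of 30 bases around annotated starts are shown for these and, as examples without the tract, for Rps2 and the paralog Rpl22l1, with the 15 transcribed bases in capitals. They begin transcription at 17:33955665 on the minus strand (Rps18), 16:33056482 (Rpl35a), 17:24720063 (Rps2) and 3:28805508 (Rpl22l1), each of the last 3 on the plus strand.
Rps18: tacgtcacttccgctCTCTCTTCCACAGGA
Rpl35a: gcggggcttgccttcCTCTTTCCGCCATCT
Rps2: aggcagtcgagatctCGCGCTTCTTGGAGC
Rpl22l1: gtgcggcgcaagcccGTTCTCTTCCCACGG

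The window of Rps2 holds a pyrimidine run a few bases after the annotated start, and that of Rpl22l1 a run that begins 1 base after it, and neither was counted.

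A list of translation factors taken as TOP mRNAs shared the small shift. Of 18 translation factors listed as having a TOP tract, all 18 had a negative log2 fold change, with a median of -0.16, and 2 were called lower and none higher by edgeR and by DESeq2 (12 and 0 at an unadjusted p below 0.05). Of all genes, edgeR called 3.21% lower and 4.01% higher, and 51% had a negative value. The tract was not checked for these 18 one by one. The count of 2 was 4 without KO1 and 1 without Het2, Het3, KO2 or KO3. The share of all genes called lower was 2.77% without KO1 and 1.09% to 4.42% in the other fits named. Eif3k, a subunit of initiation factor 3, was at 145, 154 and 147 CPM in Het and 106, 110 and 101 CPM in KO (log2 fold change -0.49, edgeR adjusted p = 0.0035) and was called under all 18 alternatives. Eef1b2, of the exchange factor for elongation factor 1, was at 424 CPM on average in Het and 353 CPM in KO, and its -0.26, with an adjusted p of 0.0223 by edgeR, lay at the fold limit. That call was lost under 8 alternatives, among them without Het2, Het3, KO2 or KO3 (edgeR adjusted p 0.101, 0.082, 0.0951 and 0.0336). Eef1a1, Eef2 and Tpt1, the 3 most abundant, were at -0.16, -0.24 and -0.18 and were not called, although each KO library was below each Het library.

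Some ribosome components carry other kinds of names. Rack1, on the head of the small subunit, was at 1028, 1033 and 1062 CPM in Het and 928, 886 and 831 CPM in KO, with a log2 fold change of -0.24 inside the fold limit. Fau, which encodes Rps30, was at -0.15, and Rpl36al was at -0.07.

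Mitochondrial ribosomal protein genes, which build the separate ribosome of that organelle, lay nearer 0. Of 82 in the table, 78 were tested, the median was -0.03, and 5 were called lower and none higher (15 and 2 at an unadjusted p below 0.05, and 6 and 0 by DESeq2). The edgeR calls stand against 3.21% lower and 4.01% higher over all genes. The count of 5 was 3 without Het2 or KO2 and 6 without Het1. In those fits 1.09%, 1.65% and 2.74% of all genes were called lower. Mrps10, of the mitochondrial small subunit, was at 18.4, 20.8 and 19.2 CPM in Het and 6.37, 6.71 and 6.67 CPM in KO (log2 fold change -1.56, edgeR adjusted p = 0.000441) and was called under all 18 alternatives. The others were Mrps27 and Mrps34 (both -0.40), Mrpl10 (-0.35) and Mrps23 (-0.31). Mrps10 and Mrps34 lie on chromosome 17, where 9.94% of tested genes were called lower. Of 54 ribosome biogenesis factors, Bysl (-0.49) and Riok1 (-0.30), both of small subunit maturation, were called lower and none higher (9 and 6 at an unadjusted p below 0.05, and 2 and 0 by DESeq2), with a median of -0.02. The count of 2 is near the 3.21% called lower over all genes, so no change of the set is read from it. None of the 54 was called lower without Het1, Het2, Het3 or KO2, where 1.09% to 2.74% of all genes were. Without KO3, 1 was called lower. Bysl also lies on chromosome 17. The most abundant, Ncl, Npm1 and Ubtf, were at -0.09, -0.17 and 0.06 and were not called.

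Of 16 regulators of ribosomal protein mRNA translation, Tsc2, an inhibitor of mTOR signalling, was called lower (-0.27), and Larp1b (0.30) and Tia1 (0.29) were called higher. The shares over all genes were 3.21% lower and 4.01% higher. Tsc2 lies on chromosome 17, where 9.94% of tested genes were called lower. The 1 called lower became 0 without Het2, Het3 or KO3 and 2 without KO1, and the 2 called higher became 1 without any one library other than KO3. With 1 library left out, 1.09% to 4.42% of all genes were called lower and 0.834% to 3.97% higher. Larp1, the main TOP-binding protein, was at -0.02. Of 22 p53 targets, 3 were called higher and none lower (13 and 0 at an unadjusted p below 0.05, and 4 and 0 by DESeq2), with a median of 0.19. By edgeR, 4.01% of all genes were called higher and 3.21% lower. Eda2r, a death receptor, was at 4.96, 4.42 and 6.81 CPM in Het and 10.2, 19.6 and 11.5 CPM in KO (log2 fold change 1.35, edgeR adjusted p = 0.0314), with Phlda3 at 0.82 and Gdf15 at 1.25, the last under 0.3 CPM in every library. No p53 target was called when any one of Het1, Het2, Het3 or KO2 was left out. In those fits 0.834% to 3.5% of all genes were called higher.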

How the data were processed

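RNA of 7 pooled E16 retina samples was made into stranded, poly(A)-selected libraries. Per the labels and methods, the authors aligned reads with STAR to GRCm38 (mm10) with GENCODE M10 annotation and counted genes with featureCounts. Versions, strand and multimapping settings are not given in the sources used here. The deposited table holds raw counts. Groups follow the labels. Genes passing edgeR's default filter (20019) were fitted over all 7 libraries with edgeR 4.0.16 in R 4.3.3 (TMM scaling, quasi-likelihood test of KO over Het). DESeq2 1.42.0 was an alternative, among 18 in all. SE is the absolute log2 fold change over the square root of F. Near copies were found with blastn 2.17.0 among GENCODE M21 transcripts on GRCm38, whose coordinates are printed.

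The fit was tested on simulated counts. Libraries of a group are separate pools, so p-values measure the spread between pools. The members and gene lists were chosen with earlier results of these data known. Named genes were the called members, the paralogs, the stalk genes and Rpsa, the extremes of level, the 3 nearest uncalled members, near copies and neighbours of called members, and the called and 3 most abundant genes of each list. Gm8520, Gm5561, Rpl10a, Rps26, Rpl37, Rpl7, Gm15772, BC004004, Muc20 and Zfp148 were added after their values were seen, as were Rpl24, Rpl13a, Rpl26, Rpl34, Rpl28, Rpl30, Rps3a2, Rpl6l and Rps12l1. A few named genes that fall under this rule are not reported here, and counts over the members include them.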

Additional observations from a re-analysis of the deposited data

How the results depend on the processing

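The 11 members called lower by edgeR became 31 with the adjusted p alone and 2 (Rpl29 and Rpl35a) with glmTreat, which tests against the fold limit itself. Leaving out 1 library gave 3 to 32, with 32 without KO1 and 3 without Het2 or KO2, and the cause was not tested. The remaining alternatives gave 9 to 12, and no alternative gave a member called higher. Rpl29 kept its direction and call in all 18, from -5.05 without Het1 to -2.53 when summed with its near copies, a sum chosen after seeing the data. The median log2 fold change of the members kept its sign, from -0.24 to -0.15. With 1 library left out, signs reversed for Rpl39l, from -6.33 to 0.35 (without Het1), and Rplp1, from -0.11 to 0.016 (without KO3), and also for Rpl28 (0.012 without KO3), Rpl30 (0.022 without Het3) and Rps3a2 (0.18 without Het3, and 0.0060 with the replicate block), none of them called.

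Het and KO libraries share replicate numbers, but libraries of the same number did not deviate together (correlations over genes -0.21, 0.12 and -0.09), so the numbers were not taken as pairs. With the replicate block 9 members were called lower, and Rps20 was not among them. Genes under about 1 CPM and genes with near copies are the values that depth and read placement limit most.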

Other observations

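A few ribosomal protein genes had far fewer counts than most members, and none of them was called. Rpl24, a large subunit protein, was at 1.69 CPM in WT, 1.83 ± 0.11 CPM in Het and 1.94 ± 0.151 CPM in KO (SD, n = 3 each). In the annotation, 47.0% of its exon bases are shared on the same strand with Gm28037, a gene with 0 counts in all libraries. Rpl13a was at 38.3 ± 1.46 CPM in Het and 35.5 ± 0.879 CPM in KO, and 35.4% of its exon bases are shared with other genes, mainly Gm45713, also at 0 counts.

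Rpl26, of the exit of the peptide tunnel, was at 65.7, 65.6 and 63.2 CPM in Het, below its processed pseudogene Gm15772 (5:3236431-3236868), which has 2 mismatches over 435 coding bases and was at 235, 238 and 238 CPM in Het and 221, 205 and 189 CPM in KO. Neither was called, and together with the other copies they were at -0.22. BC004004, a protein-coding gene whose transcripts hold a copy of Rpl21, was at 47.9 ± 1.14 CPM in Het and 46.0 ± 2.11 CPM in KO. How reads shared by these genes were assigned is not given in the sources used here.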
